A study of Homo sapiens with 6 samples.

Results

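The genes described here are 8 components of MHC class I antigen presentation: HLA-B, HLA-C, HLA-E, B2M, TAP1, TAP2, TAPBP and ERAP1. They were chosen by symbol from the 60624 genes of a deposited expression table, and all 8 were found in it. The table holds RNA-seq of A549, a human lung adenocarcinoma line labelled as non-small cell lung cancer (NSCLC), after knockdown of CEP20, a centrosomal protein. 3 libraries came from cells transfected with siCEP20 and 3 from cells transfected with a control, siCTR, each for 3 days. The labels give the genotypes as CEP20 knockdown and control and enter plasmid transfection as the treatment in both groups, while the study's methods describe siRNA delivered with a lipid reagent. All 6 libraries share the parental line, and which of the study's CEP20 siRNAs was used is not given in the sources used here. The methods give 3 independent experiments as a general statement for the whole study, but the labels do not say that these libraries came from separate cultures, and p-values then measure the spread between these samples, which may be technical.

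MHC class I molecules display peptides from the inside of a cell to CD8+ T cells and natural killer cells. Proteasomes cut cytosolic proteins into peptides, the TAP1 and TAP2 transporter moves them into the endoplasmic reticulum, ERAP1 trims them, and tapasin, encoded by TAPBP, bridges TAP to newly made class I molecules and helps select the peptide. A class I molecule pairs a heavy chain (HLA-B, HLA-C or HLA-E among these genes) with the light chain beta-2-microglobulin, encoded by B2M. Interferons, NF-kappaB and the coactivator NLRC5 are known inducers of these genes, and many tumours carry low levels of them.

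Promoters are shown for HLA-B and HLA-C, whose windows are much alike, for TAPBP, which passed as higher, for TAP1, which starts beside PSMB9, and for B2M, which all class I molecules need. Windows of 250 bases before to 50 after each start were available for 7 of the 8 genes from RefSeq (GRCh38.p14), and HLA-E had no entry. They are printed 5′ to 3′ on the strand of the gene, with capitals marking matches on either strand to the core of the interferon-stimulated response element (ISRE, GAAANNGAA) or to the NF-kappaB motif, and neighbouring matches can overlap. HLA-B lies at chr6:31357130-31357429 and HLA-C at chr6:31272043-31272342, TAP1 at chr6:32853655-32853954 and TAPBP at chr6:33314029-33314328, all on the minus strand. B2M lies at chr15:44711267-44711566 on the plus strand.
HLA-B: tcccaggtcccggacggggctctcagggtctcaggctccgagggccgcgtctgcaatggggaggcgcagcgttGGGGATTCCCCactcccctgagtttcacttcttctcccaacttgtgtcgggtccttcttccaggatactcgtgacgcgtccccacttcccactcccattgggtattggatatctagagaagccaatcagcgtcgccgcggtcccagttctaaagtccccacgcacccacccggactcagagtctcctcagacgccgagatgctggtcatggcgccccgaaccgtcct
HLA-C: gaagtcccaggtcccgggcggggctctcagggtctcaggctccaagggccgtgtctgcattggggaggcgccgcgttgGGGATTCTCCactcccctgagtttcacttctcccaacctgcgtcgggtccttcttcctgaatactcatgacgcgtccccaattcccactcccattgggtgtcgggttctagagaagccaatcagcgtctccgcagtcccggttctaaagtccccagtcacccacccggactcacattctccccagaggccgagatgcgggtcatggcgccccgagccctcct
TAPBP: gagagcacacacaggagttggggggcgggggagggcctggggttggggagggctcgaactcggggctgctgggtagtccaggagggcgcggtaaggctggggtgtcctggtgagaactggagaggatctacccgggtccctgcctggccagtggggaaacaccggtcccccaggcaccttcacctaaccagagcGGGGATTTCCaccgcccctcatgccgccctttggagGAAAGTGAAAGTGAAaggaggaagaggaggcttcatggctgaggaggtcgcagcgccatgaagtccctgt
TAP1: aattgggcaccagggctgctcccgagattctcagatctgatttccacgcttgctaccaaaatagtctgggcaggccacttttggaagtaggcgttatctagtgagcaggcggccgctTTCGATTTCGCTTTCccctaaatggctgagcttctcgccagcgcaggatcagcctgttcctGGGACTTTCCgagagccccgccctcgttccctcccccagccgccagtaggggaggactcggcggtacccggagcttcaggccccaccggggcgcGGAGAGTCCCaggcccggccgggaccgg
B2M: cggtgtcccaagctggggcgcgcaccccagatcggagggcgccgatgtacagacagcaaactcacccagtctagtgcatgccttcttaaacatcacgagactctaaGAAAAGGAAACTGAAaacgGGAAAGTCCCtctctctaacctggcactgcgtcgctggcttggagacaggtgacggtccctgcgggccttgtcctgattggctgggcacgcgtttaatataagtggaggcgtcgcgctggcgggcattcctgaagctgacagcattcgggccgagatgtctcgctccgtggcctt

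The HLA-B and HLA-C windows were 88.5% identical, with 35 edits over 305 aligned columns. Each held an NF-kappaB match and no exact match to the ISRE core letters GAAANNGAA. Looser forms of the element were not searched, so an ISRE in these windows is not excluded. Among all pairs of the 7 genes the next highest identity was 54.5%, between TAP1 and TAP2. The exact ISRE core letters were found for 5 of the 7 genes (B2M, TAP1, TAP2, TAPBP and ERAP1), against 8.11% of 35116 RefSeq promoter windows. An NF-kappaB match was found for 6 (all but TAP2), against 11.3% of windows. TAP1 and ERAP1 have 2 RefSeq windows each, and all their matches lay in 1 of them. The letters CCAAT, read on both strands, occurred for HLA-B, HLA-C, B2M, TAP1 and ERAP1 (34.6% of all windows), and TGACG for HLA-B, HLA-C, B2M and TAP2 (24.6%). A match is a description of the letters and not evidence of binding.

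Expression was in TPM, a transcript abundance that is corrected for length and sums to 1000000 in each library, so levels can be set beside each other between genes. CEP20 itself (ENSG00000133393) was at 29.2, 30.5 and 35.1 TPM in siCTR and at 16.2, 15.3 and 17.3 TPM in siCEP20, or 51.4% of control, with a log2 fold change of -0.92 (SE 0.0915, limma adjusted p = 0.000205). The epithelial A549 markers were all expressed, with summed TPM of 6531 to 6714 in siCTR and 7733 to 8086 in siCEP20. Of 10 leukocyte markers, 4 were at 0 in every library, CD3E, CD163 and NKG7 among them, and the sum was 25.7 to 36.1 TPM in siCTR and 36.7 to 57.3 TPM in siCEP20, most of it CD68, a lysosomal protein, which rose by a log2 fold change of 0.79. CD14 was also expressed, at 7.34 to 10.9 TPM in siCTR and 7.20 to 8.84 TPM in siCEP20. ITGAM was at 1.19 to 1.69 TPM in siCTR and 1.42 to 2.11 TPM in siCEP20. The groups overlapped for CD14 and for ITGAM. The 5 endothelial markers summed to at most 0.160 TPM. Of 6 fibroblast markers, COL1A2 and DCN were at 0 throughout, and COL1A1 accounted for nearly all of a sum of 5.39 to 6.15 TPM in siCTR and 17.7 to 20.2 TPM in siCEP20. The part of these shifts in the results below was not tested.

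Knockdown of CEP20 left the most abundant class I genes near their control levels, while TAPBP rose and HLA-B and TAP2 fell. A gene passed when its limma adjusted p, over the 14778 genes whose mean reached 1 TPM, was under 0.05. It was called when its fold change, taken from log2(TPM + 1) values, was also above 1.5 or below 0.67. All 8 genes were tested: 1 passed as higher, 2 passed as lower, 5 did not pass and 0 were called in either direction. Over all tested genes, 30.2% passed as higher and 13.2% as lower, and 11.2% were called higher and 4.61% lower. The libraries of the groups did not overlap for 5 of the 8 genes, against 55.4% of all tested genes, so this share was close to the background. The median log2 fold change was -0.08 for the 8 genes and 0.13 for all tested genes, and changes relative to that shift are given where they matter. With 3 libraries against 3, the exact permutation test of a single gene cannot go below p = 0.1.

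**Figure D1:**
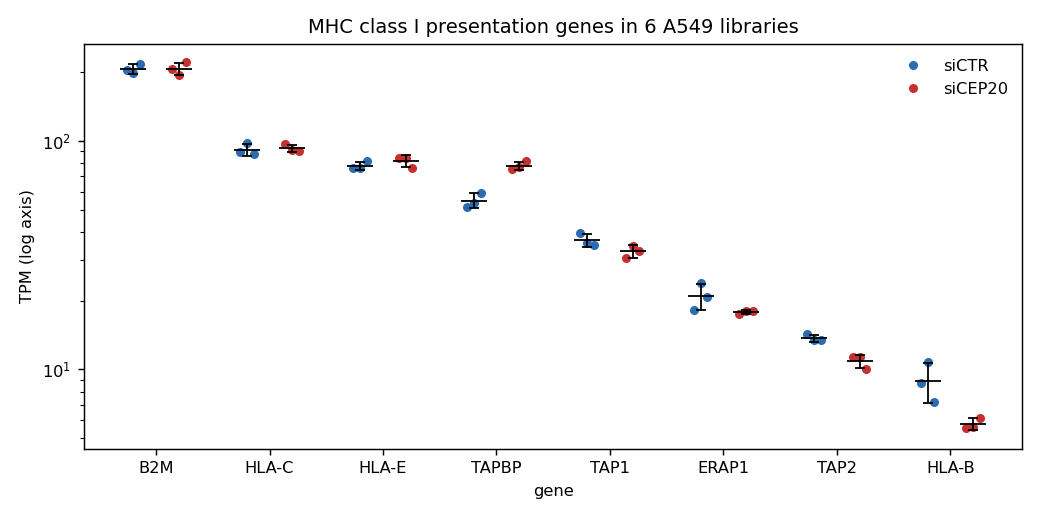
Level of each of the 8 genes (TPM, log axis) in the 3 siCTR libraries (blue) and the 3 siCEP20 libraries (red), with the mean and SD in black, ordered by the control mean. B2M stands near 206 TPM in both groups, TAPBP is higher in every siCEP20 library, and TAP2 and HLA-B are lower in every siCEP20 library.

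The order of the levels was the same in both groups. In siCTR it ran from B2M (206 ± 10.1 TPM, SD, n = 3) through HLA-C, HLA-E, TAPBP, TAP1, ERAP1 and TAP2 to HLA-B (8.89 ± 1.80 TPM), and no neighbours in that order overlapped between libraries. In siCEP20, HLA-E (81.5 ± 4.91 TPM) and TAPBP (77.8 ± 3.15 TPM) overlapped, and the other neighbours did not. The 8 genes summed to 510 ± 10.5 TPM in siCTR and 527 ± 8.62 TPM in siCEP20 (two-sided exact permutation p = 0.2, n = 3 per group). The difference between the means was larger than either SD. The groups overlapped, since siCEP20 replicate 2 (518 TPM) lay below siCTR replicate 3 (522 TPM).

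HLA-B (ENSG00000234745, chr6:31353872-31367067, minus strand) encodes a classical heavy chain that presents peptides to CD8+ T cells. It was at 8.72, 10.8 and 7.19 TPM in siCTR and at 5.52, 5.59 and 6.15 TPM in siCEP20. Every siCEP20 library was below every siCTR library, and the control libraries were the more spread. Its mean fell to 64.7% of control, with a log2 fold change of -0.54 (SE 0.141, 95% interval -0.86 to -0.21, limma adjusted p = 0.0162; exact permutation p = 0.1). HLA-B passed near the threshold, since the adjusted p was 0.0523 without siCEP20 replicate 1, 0.0504 without siCEP20 replicate 2 and 0.0646 with no filter on low TPM, and HLA-B was called lower without siCTR replicate 3 (-0.66) or siCEP20 replicate 3 (-0.58). HLA-B had the lowest level of the 8 genes, and reads of HLA alleles that differ from the reference, or that several HLA genes share, can be lost or assigned to another gene, which was not tested here.

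HLA-C (ENSG00000204525, chr6:31268749-31272130, minus strand) encodes a classical heavy chain that also serves as a ligand of inhibitory receptors on natural killer cells. Its level was 89.1, 97.5 and 87.2 TPM in siCTR and 96.9, 91.5 and 90.3 TPM in siCEP20. The groups overlapped. The log2 fold change of 0.03 (SE 0.0646, 95% interval -0.12 to 0.17, limma adjusted p = 0.766) was within the spread between libraries, and its sign turned under median-of-ratios scaling (-0.13) and quantile normalization (-0.052). The promoter windows of HLA-B and HLA-C printed above were the most alike of any pair, and their intervals on the log2 scale, -0.86 to -0.21 and -0.12 to 0.17, did not meet; the difference between the changes was not tested.

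HLA-E (ENSG00000204592, chr6:30489509-30494194, plus strand) encodes a non-classical heavy chain that displays leader peptides of other class I chains to the NKG2A receptor. It was at 75.8, 76.4 and 81.3 TPM in siCTR and at 84.2, 84.5 and 75.9 TPM in siCEP20. In siCEP20, replicates 1 and 2 lay above all controls and replicate 3 lay among them. The log2 fold change of 0.07 (SE 0.0662, 95% interval -0.09 to 0.22, limma adjusted p = 0.46) did not pass, and its sign turned under median-of-ratios scaling (-0.090), quantile normalization (-0.0039) and correction for transcript length and GC content (-0.051).

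B2M (ENSG00000166710, chr15:44711358-44718851, plus strand) encodes the light chain of every class I molecule. It was at 203, 198 and 217 TPM in siCTR and at 206, 195 and 221 TPM in siCEP20, so the groups covered nearly the same range. The log2 fold change was 0.01 (SE 0.0641, 95% interval -0.14 to 0.15, limma adjusted p = 0.949), with a sign that turned under median-of-ratios scaling (-0.15) and quantile normalization (-0.043). The summed TPM of HLA-B, HLA-C and HLA-E stood at 0.865 ± 0.0637 of B2M in siCTR and at 0.873 ± 0.0802 in siCEP20 (exact permutation p = 1, n = 3 per group).

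TAP1 (ENSG00000168394, chr6:32845209-32853816, minus strand) encodes a chain of the peptide transporter. Its level was 39.6, 35.6 and 35.1 TPM in siCTR and 30.8, 34.8 and 32.9 TPM in siCEP20. The groups did not overlap, although the highest siCEP20 library and the lowest siCTR library were close. The mean was 89.3% of control, and the log2 fold change of -0.16 (SE 0.0785, 95% interval -0.34 to 0.02, limma adjusted p = 0.139) did not pass. TAP1 passed as lower under median-of-ratios scaling (-0.31, adjusted p = 0.0208), quantile normalization (-0.28, adjusted p = 0.0243) and length and GC correction (-0.28, adjusted p = 0.0194), scales on which the median of all genes lay near 0.

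TAP2 (ENSG00000204267, chr6:32821833-32838739, minus strand) encodes the other chain of the transporter. It was at 14.3, 13.4 and 13.5 TPM in siCTR and at 11.3, 11.3 and 10.1 TPM in siCEP20. All siCEP20 libraries were below all siCTR libraries, by more than the spread within either group. The mean fell to 79.4% of control, with a log2 fold change of -0.31 (SE 0.0858, 95% interval -0.50 to -0.11, limma adjusted p = 0.0204). It no longer passed without siCTR replicate 1 (adjusted p = 0.0538) or siCEP20 replicate 3 (adjusted p = 0.0679). The ratio of TAP1 to TAP2 was 2.68 ± 0.0858 in siCTR and 3.02 ± 0.270 in siCEP20, with overlapping libraries (exact permutation p = 0.2, adjusted over 7 ratios 0.28, n = 3 per group). An overlapping gene on the same strand, ENSG00000250264, was at 1.60, 1.10 and 1.35 TPM in siCTR and at 0.282, 1.74 and 1.33 TPM in siCEP20.

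TAPBP (ENSG00000231925, chr6:33299694-33314284, minus strand) was the one gene of the 8 that passed as higher. Its level was 51.4, 53.7 and 59.3 TPM in siCTR and 75.2, 76.9 and 81.3 TPM in siCEP20. The lowest siCEP20 library stood well above the highest siCTR library. The mean rose 1.42-fold, with a log2 fold change of 0.50 (SE 0.0717, 95% interval 0.33 to 0.66, limma adjusted p = 0.00104), or 0.37 above the median of all tested genes. The ratio of TAPBP to TAP1 within a library, which does not depend on scaling between libraries, was 1.30, 1.51 and 1.69 in siCTR and 2.44, 2.21 and 2.47 in siCEP20. The groups did not overlap, and the geometric mean of the ratio in siCEP20 was 159% of that in siCTR (exact permutation p = 0.1, the smallest possible, adjusted over 7 ratios 0.175, n = 3 per group). The promoter windows of both genes held ISRE cores and NF-kappaB matches.

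ERAP1 (ENSG00000164307, chr5:96760810-96808100, minus strand) encodes an aminopeptidase of the endoplasmic reticulum that trims peptides to the length class I molecules hold. It was at 18.3, 23.9 and 20.6 TPM in siCTR and at 17.4, 18.0 and 17.9 TPM in siCEP20. The groups did not overlap, but siCTR replicate 1 was close to the siCEP20 libraries. The mean was 85.0% of control, and the log2 fold change of -0.22 (SE 0.101, 95% interval -0.45 to 0.02, limma adjusted p = 0.119) did not pass. ERAP1 passed as lower under median-of-ratios scaling (-0.36, adjusted p = 0.0117), quantile normalization (-0.36, adjusted p = 0.0116), length and GC correction (-0.43, adjusted p = 0.00434) and without siCTR replicate 1 (-0.30, adjusted p = 0.0363). Its gene body overlaps CAST, on the opposite strand, which encodes a calpain inhibitor and rose from 184 ± 20.3 to 306 ± 9.98 TPM. The methods describe libraries whose strand was marked with dUTP, HISAT2 was run with its default settings, and whether StringTie used strand is not given in the sources used here. The related aminopeptidase ERAP2 was under 1 TPM in every library, so the ratio of ERAP1 to ERAP2, 45.3 ± 17.1 in siCTR and 23.1 ± 1.90 in siCEP20, rests on a gene below the filter.

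**Figure D2:**
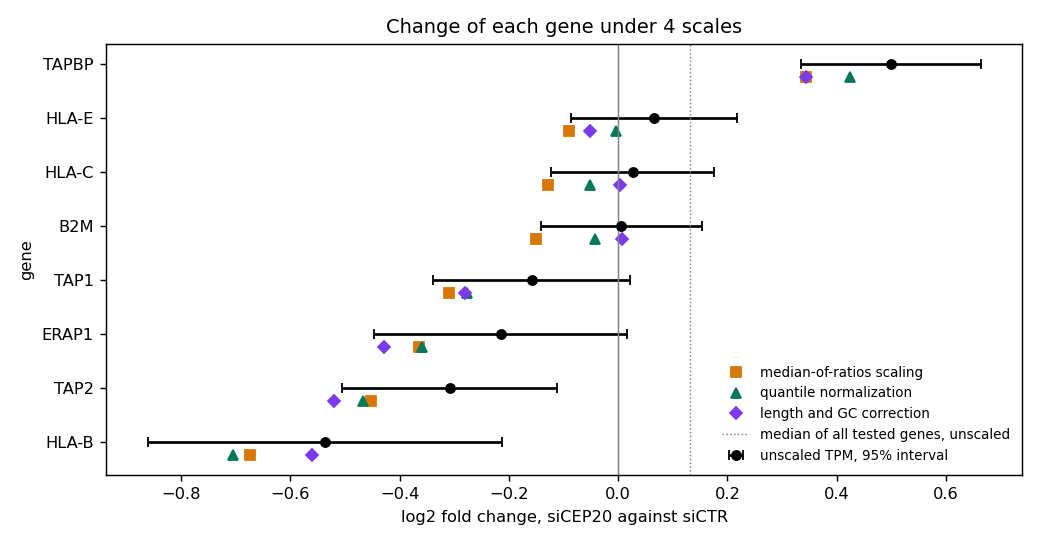
Log2 fold change (siCEP20 against siCTR) of each gene on unscaled TPM with its 95% interval (black), and under 3 other scales (coloured markers), with the median of all tested genes as a dotted line. TAPBP lies above 0 and HLA-B, TAP2, ERAP1 and TAP1 below 0 on all 4 scales, while HLA-C, HLA-E and B2M change sign between them.

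The other class I and class I-like chains were mixed. Of 12 genes listed, 10 were tested, with 1 passing as higher and 3 as lower, and the median was -0.04 on the log2 scale. Over all tested genes, 30.2% passed as higher and 13.2% as lower, with a median of 0.13. HFE, a class I-like regulator of iron uptake, rose by 0.69, and FCGRT, the heavy chain of the neonatal Fc receptor, fell by 0.59 on the log2 scale. Both pair with beta-2-microglobulin. The ligands of the NKG2D receptor were not of one direction. ULBP1 and ULBP3 passed as lower at -0.37 and -0.53, but ULBP1 no longer passed when any of 3 libraries was left out (adjusted p up to 0.0601), nor ULBP3 when any of the 6 was (0.055 to 0.0832) or with the replicate block (0.0673). ULBP3 was close to the filter of 1 TPM, at 1.57 ± 0.149 TPM in siCTR and 0.774 ± 0.0962 TPM in siCEP20. It was tested only because of its level in siCTR, so its fall carries little weight. ULBP2 was at 0.47, with groups that did not overlap, and did not pass (adjusted p = 0.0624). MICA (0.0087) and MICB (-0.06) did not pass either, although MICA was at -0.14 and MICB passed as lower at -0.21 under median-of-ratios scaling. HLA-G and CD1D were listed at 0 in every library.

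Among the peptide loading and editing genes, 9 of 10 were tested, with 2 passing as higher, 0 as lower and a median of 0.08 that turned to -0.079 under median-of-ratios scaling. Those that passed were GANAB (0.80) and PRKCSH (0.52), which encode the subunits of glucosidase II, the enzyme that trims glycans so that new glycoproteins can bind calnexin and calreticulin. The chaperones of the loading complex did not pass, with log2 fold changes of -0.05 for CALR, -0.11 for CANX and 0.08 for PDIA3, and these signs turned under some of the other scales. CALR, at 1402 to 1794 TPM in siCTR, was far above any of the 8 genes. MPDU1, used in making the glycan donor, was at 0.17 and did not pass. Of 9 cytosolic peptidases, 3 passed as higher and 1 as lower, among them PREP (0.31), NRDC (0.28) and DPP3 (-0.23), with a median of 0.19. Under median-of-ratios scaling 0 peptidases passed as higher and 3 as lower. The background for both lists was 30.2% of all tested genes passing as higher and 13.2% as lower. Under median-of-ratios scaling it was 2905 and 3219 of 14778 genes.

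The proteasome genes were the lists whose tested members all fell. All 5 immunoproteasome and PA28 activator genes passed as lower, with 3 called, and the median was -0.92 on the log2 scale. Over all tested genes, 13.2% passed as lower and 4.61% were called lower. PSMB9, a catalytic subunit induced by interferon, was at 20.7, 22.5 and 22.7 TPM in siCTR and at 8.34, 9.18 and 11.7 TPM in siCEP20, a log2 fold change of -1.11 (limma adjusted p = 0.000295). PSMB10 fell by 1.17, PSMB8 by 0.37, PSME1 by 0.57 and PSME2 by 0.92 on the log2 scale. PSMB8 no longer passed when any of 4 libraries was left out (adjusted p up to 0.0881) and with the replicate block (0.051). The 3 constitutive catalytic subunits also passed as lower, PSMB6 at -0.75, PSMB7 at -0.59 and PSMB5 at -0.29. The ratio of an immune subunit to the constitutive subunit it replaces overlapped between the groups for PSMB8 to PSMB5 (0.0643 ± 0.0102 and 0.0599 ± 0.00281, exact permutation p = 0.6, n = 3 per group). For PSMB9 to PSMB6 the geometric mean of the ratio in siCEP20 was 73.8% of that in siCTR, and for PSMB10 to PSMB7 it was 64.2%, both without overlap and each at the smallest possible exact permutation p = 0.1 (adjusted over 7 ratios 0.175, n = 3 per group).

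TAP1 and PSMB9 are divergent neighbours whose RefSeq starts lie 488 bases apart, and their RefSeq windows share 13 bases. PSMB9 had a log2 fold change of -1.11 and TAP1 of -0.16, and their 95% intervals, -1.39 to -0.83 and -0.34 to 0.02, did not meet, although the difference itself was not tested. Their GENCODE gene bodies overlap by 8608 bases on opposite strands, which is the whole TAP1 gene body. Whether StringTie used strand is not given in the sources used here, and assignment of reads between these 2 genes was not tested.

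**Figure D3:**
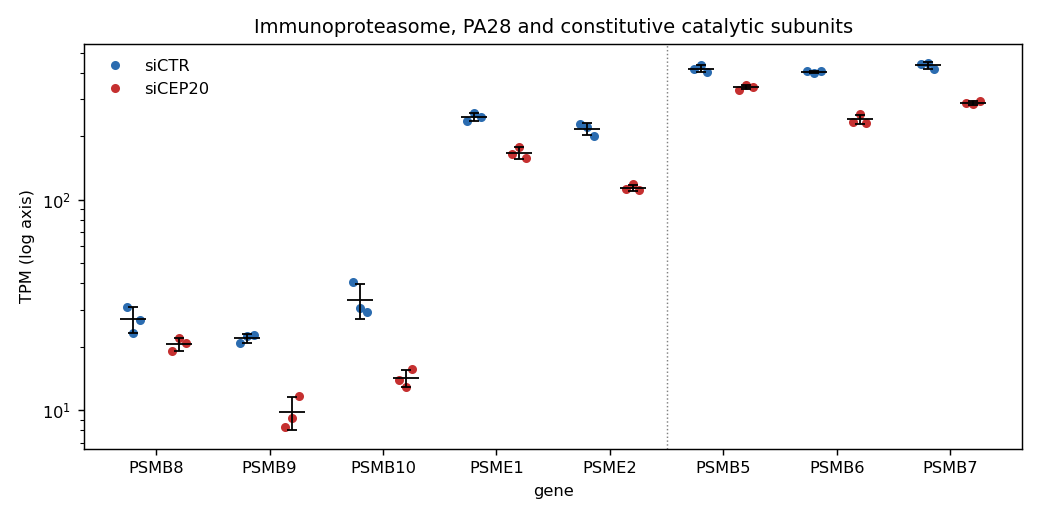
Level (TPM, log axis) of the immunoproteasome and PA28 activator genes (left of the dotted line) and of the constitutive catalytic subunits (right) in the 3 siCTR (blue) and 3 siCEP20 (red) libraries, with the mean and SD in black. Every siCEP20 library is below every siCTR library for all 8 genes, and the immune catalytic subunits are far below their constitutive counterparts in both groups.

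**Figure D4:**
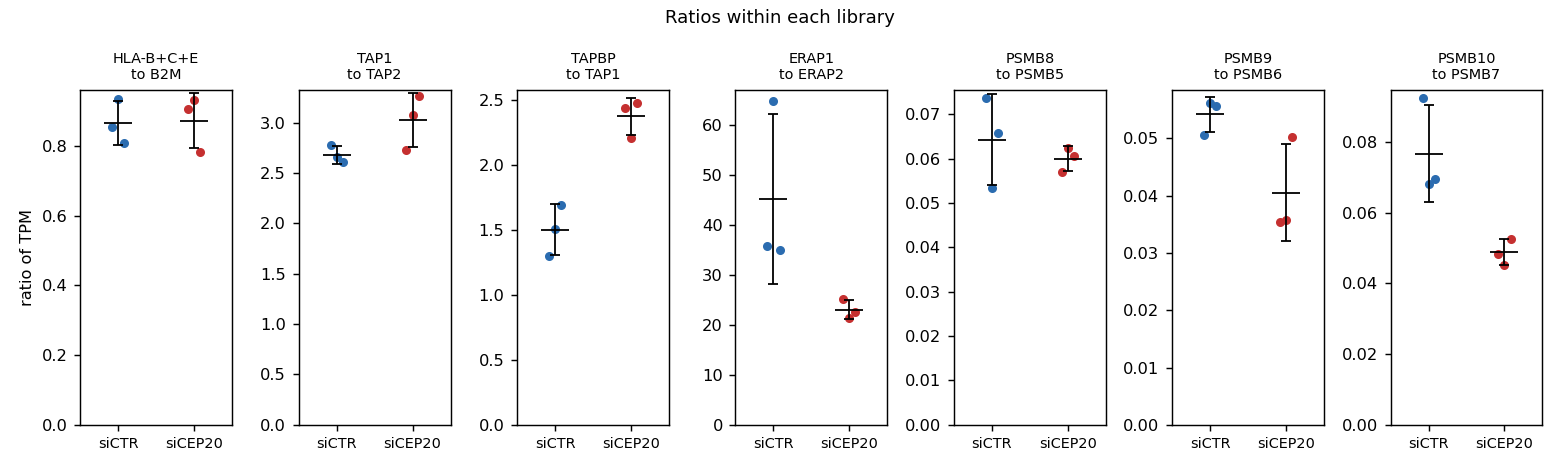
The 7 ratios of TPM within each library (vertical axes from 0), with 3 siCTR libraries in blue, 3 siCEP20 libraries in red and the mean and SD in black. The ratio of TAPBP to TAP1 is 1.30 to 1.69 in siCTR and 2.21 to 2.47 in siCEP20, while the heavy chain to B2M ratio overlaps between the groups.

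Of 14 regulators of class I transcription, 6 passed as higher and 1 as lower, with a median of 0.22, and under median-of-ratios scaling these counts were 3 and 3. For this list and for PRC2 below, the background was 30.2% of all tested genes passing as higher and 13.2% as lower. Under median-of-ratios scaling it was 2905 and 3219 of 14778 genes. RELA, the p65 subunit of NF-kappaB, rose by 0.67 and ATF1, which binds cAMP response elements, by 0.55 on the log2 scale. RFXANK, a subunit of the RFX complex that binds class I promoters, fell by 0.28, but no longer passed when any of 5 libraries was left out (adjusted p up to 0.0824). NLRC5, the class I coactivator, was at 2.06, 3.01 and 3.28 TPM in siCTR and at 2.29, 2.48 and 2.95 TPM in siCEP20, with overlapping groups and a log2 fold change of -0.07 that did not pass. Of 7 genes of PRC2, a chromatin complex known to repress class I genes in tumours, 3 passed as higher, EZH2 (0.30) and RBBP4 (0.45) among them, and 1 as lower, EED (-0.60), with a median of 0.22. Under median-of-ratios scaling 0 passed as higher and 2 as lower.

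Interferon receptor and signalling genes split evenly, with 3 of 12 passing as higher and 3 as lower and a median of 0.02 that was -0.12 under median-of-ratios scaling. For this list and the interferon-stimulated genes below, the background was 30.2% of all tested genes passing as higher and 13.2% as lower. Under median-of-ratios scaling it was 2905 and 3219 of 14778 genes. IFNGR1, a chain of the interferon gamma receptor, rose by 0.53 and the kinase JAK1 by 0.51, while SOCS3, a feedback inhibitor, fell by 0.42. STAT2 (-0.39) and IRF9 (-0.66), partners in the ISGF3 complex that binds the ISRE, also passed as lower and were chosen for naming after their values were seen. Of 50 interferon-stimulated genes, 30 were tested, with 4 passing as higher, 7 as lower and a median of -0.03, and under median-of-ratios scaling 1 passed as higher and 9 as lower. IFI6 (-0.83), IFI35 (-0.77) and OAS3 (-0.56) fell, and PLSCR1 (0.32) and HERC5 (0.43) rose, although neither of these passed under median-of-ratios scaling (adjusted p = 0.0881 and 0.0801). SAMD9, the one gene of the list called higher, was at 0.60, did not pass under length and GC correction (adjusted p = 0.116) and was named after its value was seen. ISG15, named after its value was seen, was at 11.2, 14.8 and 9.15 TPM in siCTR and at 6.23, 5.25 and 1.29 TPM in siCEP20, a log2 fold change of -1.41 whose adjusted p was 0.0603 without siCTR replicate 1 and 0.0664 without siCTR replicate 2. CXCL10, RSAD2 and GBP1 were at or near 0 in all libraries.

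Genes that act on class I molecules after assembly, or beside them at the cell surface, were described in the same way. Of 9 genes of class I surface turnover, 3 passed as higher and 1 as lower, with a median of 0.18, and under median-of-ratios scaling 1 passed in each direction. For this list and the ligands below, the background was 30.2% of all tested genes passing as higher and 13.2% as lower. Under median-of-ratios scaling it was 2905 and 3219 of 14778 genes. WWP2, a ubiquitin ligase, was at 0.46, MARCHF4 at 0.37 and MARCHF9, another ubiquitin ligase of class I, at -0.58. Of 11 ligands of immune receptors, 8 were tested, with 5 passing as higher, 1 as lower and a median of 0.28. CD55, an inhibitor of complement, rose by 0.83, CD276 (B7-H3) by 0.66 and NECTIN2 by 0.56, and CD47, the ligand of SIRP alpha, fell by 0.62, but no longer passed when any of 4 libraries was left out (adjusted p up to 0.0806). CD274, which encodes PD-L1, was below the filter at 0.591 to 0.909 TPM in siCTR and 0.688 to 1.00 TPM in siCEP20.

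Class II genes were largely silent. HLA-DRA, HLA-DRB1, HLA-DPA1, HLA-DPB1 and HLA-DQB1 were at 0 in every library, and 4 of the 12 listed genes were tested, with 0 passing as higher and 2 as lower and a median of -0.25. Those 2 were IFI30, a lysosomal thiol reductase, at -0.70 and the protease CTSS at -0.57. Over the 12 lists together, 120 of 154 genes were tested, of which 30 passed as higher and 28 as lower, and their log2 fold changes had a median of 0.05. Over all tested genes, 30.2% passed as higher and 13.2% as lower, with a median of 0.13.

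**Figure D5:**
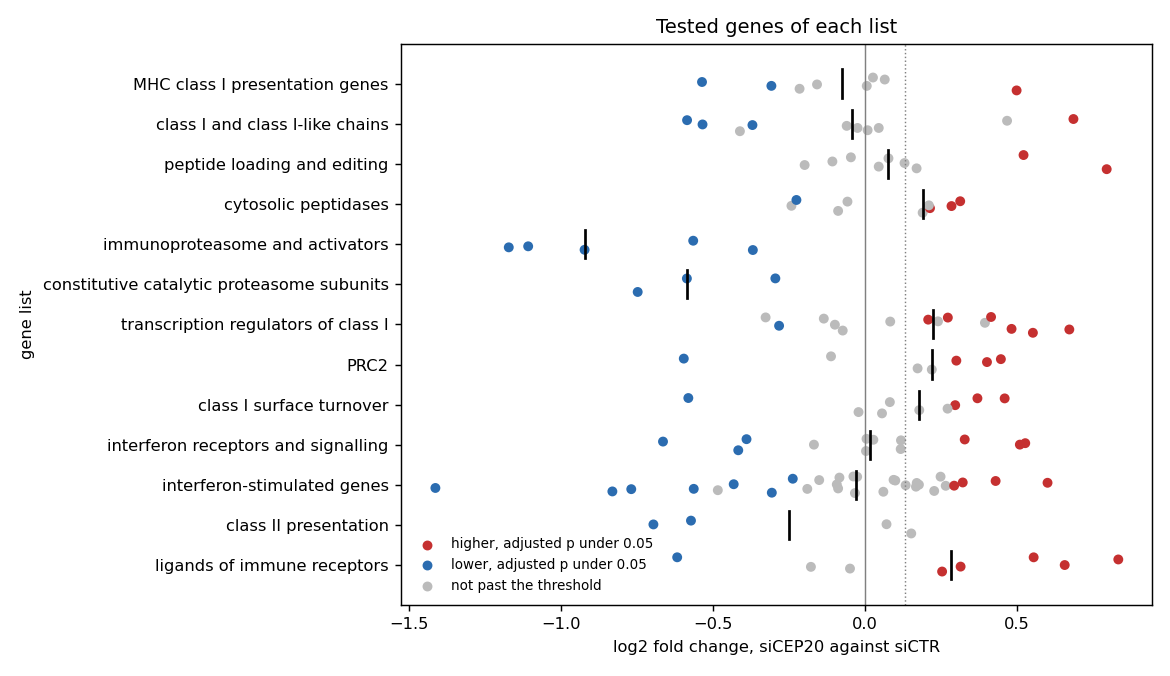
Log2 fold change (siCEP20 against siCTR) of each tested gene in the 12 lists and of the 8 class I genes, with red for genes that passed as higher, blue for genes that passed as lower and grey for the rest. Black ticks are list medians and the dotted line is the median of all tested genes (0.13). The proteasome lists lie wholly below 0, with medians of -0.92 and -0.59.

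Genes whose profile over the 6 libraries was nearest to that of a class I gene were found by Euclidean distance between centred log2(TPM + 1) values, among 10671 genes. Nearest to HLA-B were SLC35A1 (distance 0.182), SH3TC1 (0.192) and PLCD1 (0.212). Nearest to B2M were UTP4 (0.0499), ARAF (0.0678) and TBC1D10A (0.0727), and nearest to TAP1 were ERI3 (0.0727), RACGAP1 (0.0752) and TMEM250 (0.0871).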

How the data were processed

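The authors trimmed reads with fastp 0.20.1, aligned them to hg38 with HISAT2 2.1.0 and quantified genes with StringTie 2.0, per the study's methods and the submitters' processing notes. The deposited table holds TPM per gene, made by the authors, for 6 libraries of A549 cells. TPM keeps no sequencing depth, so depth is unknown and no counting interval is given. The labels name another medium and RNA kit than the methods.

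Values were fitted as log2(TPM + 1) with limma 3.58.1 (R 4.3.3, lmFit and eBayes with trend) over the 14778 genes whose mean reached 1 TPM, with Benjamini-Hochberg adjustment over all of them, because the count test of the study could not be run on TPM. A fold change is therefore on the log2(TPM + 1) scale and understates changes of low genes. Single genes and ratios had two-sided exact permutation tests (scipy 1.17.1). On data made with known changes in 200 of 14778 genes, 88.5% were called, with 2 false calls. GENCODE 44 matched 99.6% of gene IDs.

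The 8 genes and the lists were chosen with earlier results of these data known. Named were the 8 genes, CEP20, up to 3 tested genes per list with the smallest adjusted p, up to 2 that passed against the direction of their list, genes in a ratio, and the nearest profiles to HLA-B, B2M and TAP1. Other genes were named after their values were seen: ULBP2, ULBP3, MICA, MICB, SAMD9, CALR, CANX, PDIA3, NLRC5, HLA-G, CD1D, CAST, ENSG00000250264, STAT2, IRF9, ISG15, CXCL10, RSAD2, GBP1, CD274, the class II genes at 0 and the markers. Alternatives were another pseudocount, other filters on low TPM, median-of-ratios scaling, quantile normalization, correction for length and GC content, no trend, a replicate block, summed symbols and leaving out each library. Some listed genes are not reported here.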

Additional observations from a re-analysis of the deposited data

How the results depend on the processing

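Depth is unknown from TPM, 3 libraries per group limit the precision, and reads shared among HLA genes were not tested. Over the tested genes the log2 changes had a median of 0.13 unscaled, -0.0052 under median-of-ratios scaling, 0.0076 under quantile normalization and -0.000475 under length and GC correction. Genes passing as higher numbered 2905 under median-of-ratios scaling and 2952 under length and GC correction, and as lower 3219, 2938 (quantile) and 3126 (length and GC), against 4457 and 1944. Called higher were 875, 923 and 894 under the 3 scales, called lower 1121 under median-of-ratios scaling, and at a fold change of at least 2 there were 261 higher and 147 lower.

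Of the 8 genes, 4 passed as lower under each of the 3 scales and 1 with no filter on low TPM, with 1 to 2 when a library was left out. The number called lower was 1, HLA-B, at a pseudocount of 0.1, under median-of-ratios scaling and under quantile normalization, and 0 to 1 when a library was left out. TAPBP passed as higher under every alternative. HLA-B was at -0.54 with no filter (adjusted p = 0.0646) and from -0.66 to -0.40 with a library left out, and TAP2 from -0.33 to -0.26. TAP1 was at -0.31, -0.28 and -0.28 and ERAP1 at -0.36, -0.36 and -0.43 under median-of-ratios, quantile and length and GC scales, with ERAP1 from -0.30 to -0.12 when a library was left out. HLA-C was at -0.13 and -0.052, and B2M at -0.15 and -0.043, under median-of-ratios and quantile scales, and with a library left out they ranged from -0.0051 to 0.074 and from -0.040 to 0.048. HLA-E was at -0.090, -0.0039 and -0.051 under the 3 scales.

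List medians under median-of-ratios, quantile and length and GC scales, where they moved by more than the replicate SD, were -0.19, -0.18 and -0.23 for class I-like chains, 0.041, 0.043 and -0.044 for peptidases, 0.074, 0.087 and 0.022 for regulators, 0.086, 0.039 and 0.017 for PRC2, -0.12, -0.12 and -0.16 for interferon signalling and -0.14, -0.14 and -0.18 for interferon-stimulated genes. Under median-of-ratios and length and GC scales they were -0.079 and -0.11 for peptide loading, -1.08 and -0.86 for the immunoproteasome, 0.044 and -0.011 for surface turnover and 0.13 and 0.11 for ligands. The constitutive subunits were at -0.74 under median-of-ratios scaling. Class II was at -0.080 with no filter, -0.57 at a mean of at least 5 TPM, -0.39 under median-of-ratios and -0.41 under quantile scaling, and PRC2 at 0.25 with a pseudocount of 0.1. With a library left out, medians ranged from 0.10 to 0.23 for peptidases, 0.11 to 0.25 for regulators and 0.17 to 0.30 for PRC2, and the log2 difference of the heavy chain to B2M ratio from -0.037 to 0.089 and of PSMB8 to PSMB5 from -0.22 to 0.015.

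Among 66 named genes other than the 8, 862 of 983 values kept direction and side of the threshold, 78 lost the threshold, 14 gained it and 29 changed sign. Signs changed for PDIA3 (-0.079 and -0.11, median-of-ratios and length and GC), CALR (0.21) and CANX (0.00032) under quantile normalization, MICA (-0.14, -0.090 and -0.0037), ARAF (-0.14, -0.063 and -0.087) and UTP4 (-0.14, -0.052 and -0.11) under the 3 scales. With a library left out, sign changed within a range of -0.063 to 0.097 for MICA, -0.039 to 0.074 for ARAF, -0.14 to 0.040 for CALR, -0.28 to 0.042 for CANX, -0.22 to 0.023 for NLRC5, -0.065 to 0.021 for TBC1D10A and -0.014 to 0.052 for UTP4. Genes that no longer passed when 1 library was left out were CD47, CD68, EZH2, HERC5, ISG15, MARCHF4, NRDC, PLCD1, PLSCR1, PREP, PSMB8, RFXANK, SAMD9, STAT2, ULBP1 and ULBP3, for 1 to 6 libraries each. The causes were not tested.

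The replicate numbers shared by the groups did not pair the libraries: same-numbered deviations correlated at 0.157, -0.061 and -0.062, and not every library correlated best with its own number. With the replicate block, 4274 genes passed as higher and 1857 as lower, and HLA-B (adjusted p = 0.0292), TAP2 (0.0347) and TAPBP (0.00174) passed as before, while PSMB8 (0.051) and ULBP3 (0.0673) did not.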
